A study of Homo sapiens with 12 samples.

Results

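The MYC, MAX and MXD network is a family of transcription factors that compete for shared partners and DNA sites, and 9 of its genes (MYC, MAX, MXD1, MXD3, MXD4, MXI1, MNT, MLX and MGA) were followed by their symbols among the 14828 genes with deposited values. All 9 passed the filter on low values and were tested, together with 14624 genes in total. The measurements were made in the human prostate cancer line 22Rv1, in an experiment that asked which transcripts change when CENPA, the histone H3 variant of centromeric nucleosomes, is depleted. Cells were stable pools in which a lentiviral vector expressed, on doxycycline, either the nontargeting control shNT or one of a pair of CENPA-directed shRNAs, shCENPA1 and shCENPA2. All 3 groups, the control included, received doxycycline at 2 µg/ml for 72 h. mRNA was sequenced from 2 libraries per shRNA, each run in 2 lanes. The pools are selected populations of a single cell line, and the sources used here do not say that the libraries of one shRNA came from separate cultures, so the p-values measure only the spread between these libraries.

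MYC binds DNA as a dimer with MAX at the E-box, a short palindromic site, and there recruits histone acetyltransferases and elongation factors that raise transcription of genes for growth, ribosome production and metabolism. MXD1, MXI1 (also called MXD2), MXD3 and MXD4, as well as MNT, pair with MAX at the same sites, but recruit SIN3 and histone deacetylases and so oppose MYC. MLX is a second dimerization partner, used by MNT, some MXD proteins and the glucose-sensing Mondo proteins, while MGA joins MAX to a Polycomb complex called PRC1.6. In prostate cancer MYC is a well known oncogene.

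Depth and identity of the libraries were checked first. Each library held 79172294 to 133074655 reads on genes, and the 9 members rested on 683 to 17399 reads per library. CENPA itself read 2.46 and 2.18 log2 RPKM (reads scaled to gene length and library size) under shNT, 0.50 and 0.58 under shCENPA1 and -0.47 and -0.41 under shCENPA2. It was therefore 70.9% lower with shCENPA1 and 85.3% lower with shCENPA2. Luminal prostate and epithelial markers were present, with the adhesion gene EPCAM at 5.24 and 5.23 and the keratin KRT8 at 5.90 and 5.70 log2 RPKM in the shNT libraries, whereas KLK3, the gene for prostate-specific antigen, was low at -0.48. Of 13 markers of other cells (leukocytes, endothelium, stroma, basal, neuroendocrine and liver cells), 8 were not among the genes with values, and those in the table ranged from -3.05 to 4.50 log2 RPKM in shNT, the highest being the neuroendocrine marker SYP, which was not called with either shRNA. Of these, the neuroendocrine CHGA and the stromal DCN were higher with both shRNAs from very low shNT levels, and the liver gene ALB was lower with shCENPA2.

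MYC mRNA fell with both CENPA shRNAs, and fell further with shCENPA2. MXD4 rose with both. MXD3 fell with shCENPA2 and had a similar estimate with shCENPA1 that narrowly missed the threshold. The other 6 members were not called in any of the 3 comparisons. A gene was called when its adjusted p from limma (Benjamini-Hochberg over all genes tested) was under 0.05. With shCENPA1, 1 of 9 members was called lower and 1 higher, where 4.45% of all genes tested were called lower and 2.69% higher. With shCENPA2, 2 of 9 members were called lower and 1 higher, where 10.5% of all genes were lower and 8.05% higher. Between the shRNAs, 1 of 9 was lower with shCENPA2 and 0 were higher (0 also with limma's voom on recovered reads, and 1 member in either direction at an unadjusted p under 0.05), where 1.03% of all genes were lower and 0.39% higher. Adding a limit on size, a log2 fold change beyond 1, left 0 members with shCENPA1 (2.65% of all genes), MYC and MXD3 with shCENPA2 (6.13% of all genes) and 0 members between the shRNAs (0.732% of all genes). Both knockdown comparisons share the shNT libraries and are not independent of each other.

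**Figure D1:**
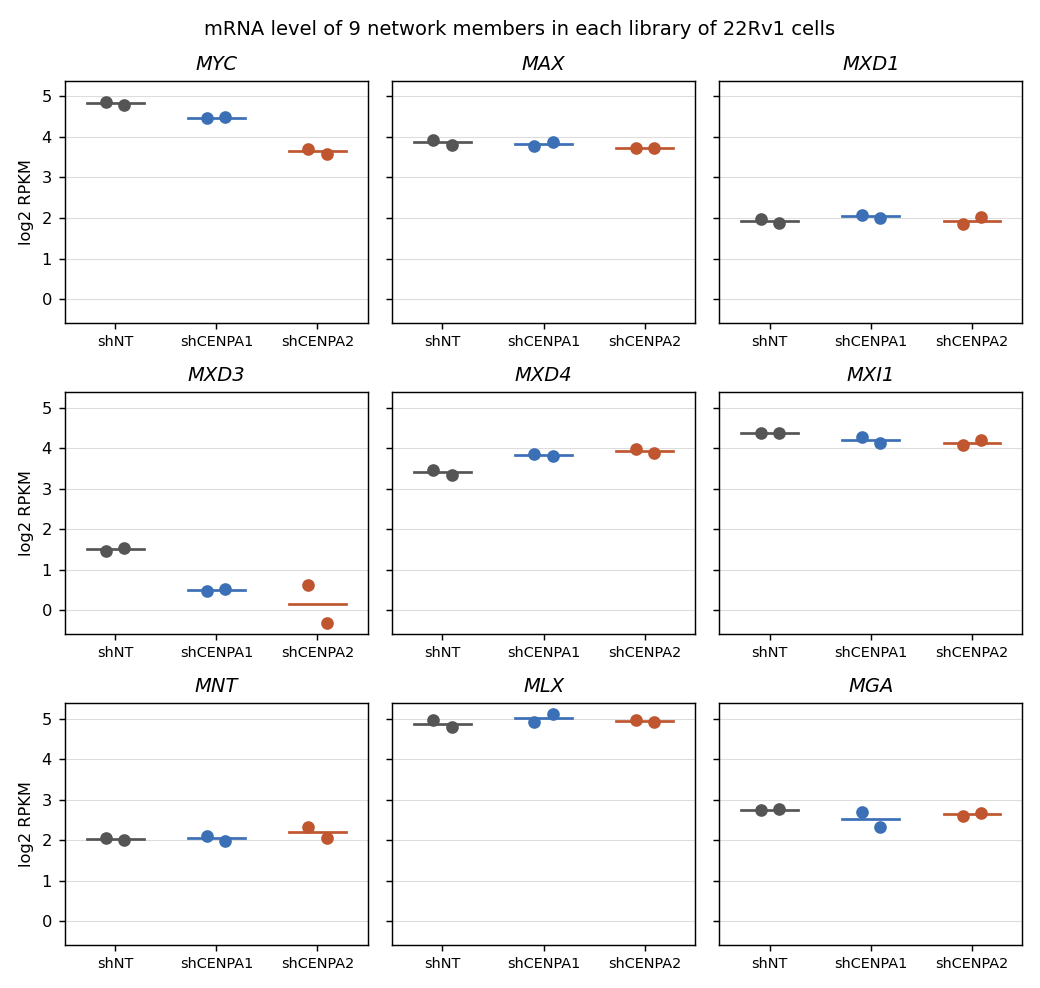
The mRNA level of each of the 9 members is plotted in log2 RPKM on the y axis for shNT, shCENPA1 and shCENPA2 on the x axis. Points are libraries (2 per shRNA, lanes averaged) and lines are group means. MYC steps down from 4.83 to 4.48 and 3.64, MXD4 steps up from 3.40 to 3.82 and 3.92, and the points of MXD3 in shCENPA2 lie far apart.

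MYC (chr8:127735434-127742951, plus strand, GRCh38) encodes the activating factor of the network. Its level was 4.86 and 4.79 log2 RPKM with shNT, 4.46 and 4.50 with shCENPA1 and 3.71 and 3.58 with shCENPA2. The 3 groups did not overlap, and both libraries of shCENPA2 were below all others. The values rest on 3236 to 9430 reads. MYC was 21.4% lower with shCENPA1 than with shNT (log2 fold change -0.35, SE 0.09, limma adjusted p = 0.0489). This call lay close to the threshold. It was lost without shNT library 1 (adjusted p = 0.344 by limma), without shNT library 2 (0.297), without shCENPA1 library 1 (0.114) and without shCENPA1 library 2 (0.144), while the log2 fold change kept between -0.38 and -0.31. With shCENPA2 the decrease was 56.0% (log2 fold change -1.18, SE 0.09, limma adjusted p = 3.66e-05), and the call was kept when any library was left out. The difference between the shRNAs was tested directly. MYC under shCENPA2 was at 56.02% of its level under shCENPA1 (log2 difference -0.84, SE 0.09, limma adjusted p = 0.0027). Without shCENPA1 library 2, this difference had an adjusted p of 0.0626 by limma. CENPA was also lower with shCENPA2 than with shCENPA1 (log2 difference -0.98, limma adjusted p = 0.0209), and whether the extent of depletion bears on MYC was not tested. In bulk RNA, fewer cells with a transcript and less of that transcript per cell cannot be told apart.

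MAX (chr14:65006174-65102695, minus strand) encodes the obligate partner of MYC and also a partner of the MXD proteins, MNT and MGA. Its level was 3.92 and 3.80 log2 RPKM with shNT, 3.79 and 3.89 with shCENPA1 and 3.72 and 3.73 with shCENPA2. The shCENPA1 libraries overlapped those of shNT, and the shCENPA2 libraries lay just below both groups. MAX was not called with shCENPA1 (log2 fold change -0.03, 95% interval -0.24 to 0.18) or shCENPA2 (-0.14, -0.35 to 0.07). A change of the size of that in MYC with shCENPA2 was outside both intervals. With shCENPA1, the interval of MYC (-0.55 to -0.15) overlapped that of MAX. The difference between MYC and MAX is given per library and was not tested. On the log2 scale, MYC exceeded MAX by 0.94 and 0.99 under shNT and by 0.68 and 0.61 under shCENPA1, whereas with shCENPA2 the differences were -0.01 and -0.15.

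MXD4 (chr4:2247432-2262109, minus strand) encodes a MAX partner that represses and is typical of quiescent and differentiating cells. It was at 3.46 and 3.34 log2 RPKM with shNT, 3.84 and 3.80 with shCENPA1 and 3.97 and 3.87 with shCENPA2. All knockdown libraries were above both shNT libraries. The level with shCENPA1 was 134% of that with shNT (log2 fold change 0.42, SE 0.09, limma adjusted p = 0.0276), and with shCENPA2 it was 144% (0.52, SE 0.09, limma adjusted p = 0.00468). The shRNAs did not differ detectably from each other (log2 difference 0.10, 95% interval -0.11 to 0.31, limma adjusted p = 0.698). The shCENPA1 call was lost without shNT library 1 (limma adjusted p = 0.114), shNT library 2 (0.372), shCENPA1 library 1 (0.0941) or shCENPA1 library 2 (0.107). The shCENPA2 call was lost only without shNT library 2 (log2 fold change 0.46, limma adjusted p = 0.0749).

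MXD3 (chr5:177301461-177312757, minus strand) is the member of the MXD family that is expressed in proliferating cells during S phase. It had the lowest level of the 9 in every group, at 1.47 and 1.53 log2 RPKM with shNT, 0.47 and 0.53 with shCENPA1, and 0.62 and -0.31 with shCENPA2. Every knockdown library was below both shNT libraries, but the shCENPA2 libraries differed from each other more than those of any other member (SD 0.65, n = 2). Its reads numbered 683 to 1884 per library and its lanes differed by at most 0.25 on the log2 scale. With shCENPA2, MXD3 fell by 60.6% (log2 fold change -1.35, SE 0.26, limma adjusted p = 0.0069). Without shCENPA2 library 2, the deepest library, the log2 fold change was -0.88 (limma adjusted p = 0.0104), and without shCENPA2 library 1 it was -1.81 (limma adjusted p = 0.000526). With shCENPA1 the estimate was 49.98% of the shNT level and did not pass (95% interval of the log2 fold change -1.59 to -0.41, limma adjusted p = 0.0533). The shared estimate of spread includes the divergent shCENPA2 libraries, and without shCENPA2 library 1 or 2 the shCENPA1 difference was called (limma adjusted p = 0.00444 and 0.00396). In the direct comparison of the shRNAs MXD3 was not called (log2 difference -0.34, 95% interval -0.94 to 0.25), and without shCENPA2 library 2 the estimate turned to 0.12.

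Exons of MXD3 overlap those of neighbouring genes in the GENCODE annotation, and the strand setting used for counting is not given in the sources used here. The overlap with RAB24, on the same strand, is 926 bases and that with PRELID1, on the opposite strand, 1148 bases of the 4743 exonic bases of MXD3. RAB24 was not called with either shRNA (log2 fold change 0.20 and 0.29), and neither was PRELID1 (0.10 and -0.23). Exons of MLX share 775 bases with PSMC3IP on the opposite strand, and PSMC3IP was lower with both shRNAs (log2 fold change -0.90, limma adjusted p = 0.00417, and -1.45, limma adjusted p = 0.000129). MAX shares 822 of its 6257 exonic bases with FNTB on the opposite strand. MXD1 shares 237 of its 6351 exonic bases with SNRNP27 on the same strand. Neither FNTB (log2 fold change -0.01 and -0.06) nor SNRNP27 (0.03 and -0.13) was called. How reads of the shared bases were assigned was not tested.

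**Figure D2:**
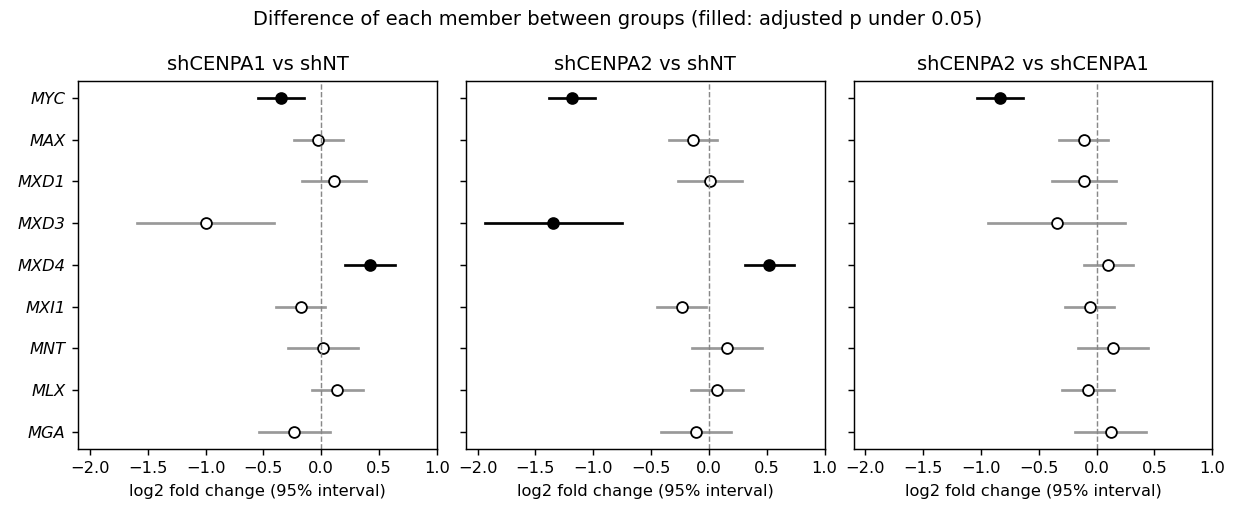
The log2 fold change of each member (x axis) is drawn with its 95% interval from limma for shCENPA1 against shNT, shCENPA2 against shNT and shCENPA2 against shCENPA1, with the members on the y axis. Filled points had an adjusted p under 0.05: MYC in all 3 panels, MXD4 in the first and the second, and MXD3 in the second.

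The remaining repressive partners of MAX differed less. MXI1 (chr10:110207605-110287365, plus strand), the most abundant of the MXD genes here, was at 4.36 and 4.38 log2 RPKM with shNT, 4.26 and 4.12 with shCENPA1 and 4.07 and 4.20 with shCENPA2. All knockdown libraries were below both shNT libraries, yet the differences were small (log2 fold change -0.18 and -0.24) and were not called. With shCENPA2 the unadjusted p was 0.0333 and the limma adjusted p was 0.118. Libraries also failed to overlap between groups in 57.1% of all genes tested for shCENPA1 and in 62.5% for shCENPA2, so that non-overlap alone was common. MXD1 (chr2:69897688-69942945, plus strand), a MAX partner induced during differentiation, stayed between 1.86 and 2.08 log2 RPKM in the 6 libraries, with the shCENPA1 libraries just above those of shNT and the shCENPA2 libraries on both sides of them. Its log2 fold change was 0.11 (95% interval -0.17 to 0.39) and 0.01 (-0.27 to 0.28). MNT (chr17:2384073-2401104, minus strand), a broadly expressed repressor, ranged from 1.99 to 2.34 log2 RPKM. It had a log2 fold change of 0.02 (95% interval -0.28 to 0.32) with shCENPA1 and 0.16 (-0.14 to 0.46) with shCENPA2. Neither MXD1 nor MNT was called.

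MLX (chr17:42567072-42573239, plus strand) had the highest mean of the 9 members in every group, at 4.96 and 4.79 log2 RPKM with shNT, 4.92 and 5.11 with shCENPA1, and 4.96 and 4.93 with shCENPA2. The groups overlapped, and the log2 fold changes of 0.14 (95% interval -0.08 to 0.36) and 0.07 (-0.16 to 0.29) were not called. MGA (chr15:41621134-41773081, plus strand), the scaffold of the PRC1.6 complex, was at 2.74 and 2.76 log2 RPKM with shNT, 2.71 and 2.33 with shCENPA1, and 2.60 and 2.68 with shCENPA2. Library 2 of shCENPA1 was the lowest, and MGA was not called with either shRNA (log2 fold change -0.23 and -0.11). Among further dimerization partners, MYCL, a paralogue of MYC, ranged from -0.30 to 0.25 log2 RPKM. The Mondo genes MLXIP and MLXIPL, whose proteins pair with MLX, lay at 1.79 to 2.18 and 0.67 to 1.73. Of these 3 genes, 0 were called in any comparison (0 also with voom), and nothing is read from a count over 3 genes. At an unadjusted p under 0.05 only MYCL with shCENPA1 passed (log2 fold change 0.42, limma unadjusted p = 0.0495, limma adjusted p = 0.225). MYCN was not analysed here.

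The order of the members by RPKM, which is scaled to gene length, differed between groups mainly in the places of MYC and MXD4. In shNT the order from the highest mean was MLX, MYC, MXI1, MAX, MXD4, MGA, MNT, MXD1 and MXD3, and of these neighbours only the libraries of MLX and MYC overlapped. With shCENPA1 the order was the same, with overlap between MAX and MXD4 and between MNT and MXD1. With shCENPA2 MYC was the 5th, below MXI1, MXD4 and MAX, and MXD4 was the 3rd, now above MAX. No neighbours overlapped.

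RPKM was summed over 7 MAX partners (MYC, MXD1, MXD3, MXD4, MXI1, MNT and MGA), without MYCL (0.82 to 1.19 RPKM per library). The sum was 78.2 and 76.1 under shNT, 72.1 and 68.4 under shCENPA1 and 61.8 and 60.4 under shCENPA2. MYC made up 37.2% and 36.5% of this sum with shNT, 30.6% and 33.0% with shCENPA1 and 21.1% and 19.8% with shCENPA2. The 4 MXD genes together were nearly level, at 36.8 to 39.2 RPKM in all 6 libraries, with MXD4 higher and MXD3 and MXI1 at lower values in the knockdown libraries. Their share of the sum was 48.9% and 49.3% with shNT, 54.3% and 53.8% with shCENPA1 and 60.9% and 62.7% with shCENPA2. These shares describe mRNA, not protein, and were given no test.

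**Figure D3:**
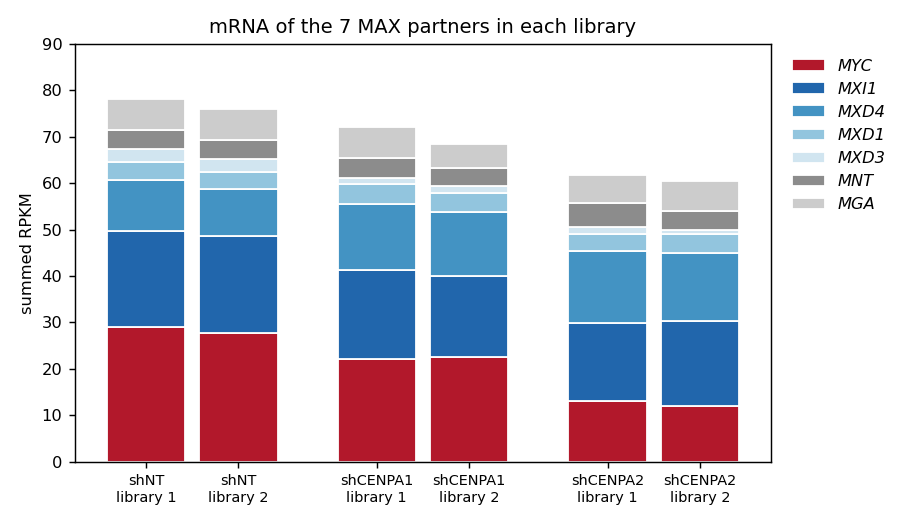
Stacked bars show the RPKM of 7 genes whose products pair with MAX, MYCL not included (y axis, from 0), in each of the 6 libraries (x axis). The MYC segment shrinks from 29.1 and 27.7 RPKM in shNT to 13.04 and 11.96 in shCENPA2, while the 4 MXD segments together stay between 36.8 and 39.2.

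E-boxes upstream of the members are shown because MYC, MXD and MNT dimers with MAX share this site. RefSeq promoter sequences (GRCh38.p14) were at hand for 8 of 9 members, all but MYC. In the 250 bases before the RefSeq start, the palindrome CACGTG, which reads the same on both strands, was found in MXD4, MNT and MLX, and it occurs in 6.34% of the 35116 promoters of that length. Gene positions above are GENCODE bounds. The RefSeq start of MXD4 is the same, whereas those of MNT and MLX differ, at 2401060 and 42567100. Counted from the GENCODE start, the E-box begins 149 bases before MNT and 22 bases before MLX, and the MLX stretch runs past that start. The 50 bases around each E-box are written 5′ to 3′ on the gene's strand, with the E-box in capitals.
MXD4, chr4:2262310-2262359, minus strand, E-box beginning 238 bases before the RefSeq start: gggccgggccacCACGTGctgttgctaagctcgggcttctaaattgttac
MNT, chr17:2401226-2401275, minus strand, E-box beginning 193 bases before the RefSeq start: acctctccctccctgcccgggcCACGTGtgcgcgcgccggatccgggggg
MLX, chr17:42567028-42567077, plus strand, E-box beginning 50 bases before the RefSeq start: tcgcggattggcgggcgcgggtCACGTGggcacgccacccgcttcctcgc
Of these genes MXD4 rose, and MNT and MLX were not called. The windows of MXD3, MAX, MXD1, MXI1 and MGA do not contain these letters, which bears only on these windows.

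Genes that work with the network were read as lists. Of all genes tested, 4.45% were called lower and 2.69% higher with shCENPA1, and 10.5% lower and 8.05% higher with shCENPA2. The lists are short against these shares, and nothing is read from a count of 0. Of 19 MYC cofactors (acetyltransferase, chromatin remodelling and elongation subunits with MIZ1, gene symbol ZBTB17), 0 were called with shCENPA1 (1 at an unadjusted p under 0.05, 0 with voom). With shCENPA2 limma on the deposited values called 1 lower (5.26%, against 10.5% of all genes) and voom called 2. The former was ACTL6A, an actin-like remodelling subunit (log2 fold change -0.35, limma adjusted p = 0.0266). Of 15 subunits of the SIN3 and NCOR corepressor complexes used by MXD proteins and MNT, limma called 0 with shCENPA1 and 0 with shCENPA2 (1 and 3 at an unadjusted p under 0.05, 0 and 0 with voom). SIN3A itself had a log2 fold change of -0.11 and -0.08. Among 9 partners of MGA in PRC1.6, limma called 0 with shCENPA1 (2 at an unadjusted p under 0.05, 0 with voom). With shCENPA2, PCGF6, which is particular to this Polycomb complex, and CBX3, a heterochromatin protein, were lower (log2 fold change -0.70, limma adjusted p = 0.00293, and -0.45, limma adjusted p = 0.0143), which is 22.2% of the list against 10.5% of all genes. This is 2 of 9 genes, and nothing is read from it about the list. Germline genes that PRC1.6 silences went both ways among the 4 of 8 that were tested. SMC1B, a meiotic cohesin subunit, was lower with both shRNAs (log2 fold change -0.78 and -1.02), MEIOC was lower and MAEL higher with shCENPA1, and TDRKH was higher with shCENPA2. MAEL (-1.18 and -1.35 log2 RPKM) and MEIOC (-0.78 and -0.76) were low in the shNT libraries. Nothing is read about the list from 4 genes.

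Of 16 tested regulators of MYC protein stability, 3 were lower with shCENPA1 (18.8%, against the 4.45% of all genes) and 3 with shCENPA2 (18.8%, against 10.5%). With shCENPA1 0 were higher (against 2.69%), and with shCENPA2 1 was (6.25%, against 8.05%). These are small counts, and nothing is read from them about the list. KIAA1524 (CIP2A), an inhibitor of the phosphatase that destabilizes MYC, had a log2 fold change of -1.28 with shCENPA1 and -1.49 with shCENPA2 (limma adjusted p = 0.00119 and 0.000218). AURKA, a mitotic kinase that can also shield MYC proteins from degradation, stood at -0.89 and -1.02 (limma adjusted p = 0.00081 and 0.000149). SKP2, a ubiquitin ligase subunit of the cell cycle, stood at -0.57 and -0.76 (limma adjusted p = 0.00647 and 0.000572). AURKA and SKP2 are also known to vary with the cell cycle. Whether the decrease of any of these 3 genes, KIAA1524 included, goes with that of the proliferation genes was not tested. The deubiquitinase USP28 was higher with shCENPA2 (log2 fold change 0.39, limma adjusted p = 0.0457), and FBXW7, the main ligase for MYC, was not called (-0.11 and -0.24).

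Among genes known to be activated by MYC, the number called lower was larger with shCENPA2. In a direct comparison of the shRNAs, 0 of 67 were called by limma or voom (17 at an unadjusted p under 0.05). Of all genes tested, only 1.03% were called lower and 0.39% higher there, so the count of 0 says little. In that comparison 49 of 67 estimates were lower with shCENPA2 and 18 higher (median log2 difference -0.083, against -0.003 for all genes). With shCENPA1, 4 of 67 tested were lower (5.97%, against the 4.45% of all genes) and 1 was higher (1.49%, against 2.69%). With shCENPA2, 19 were lower (28.4%, against 10.5%) and 2 were higher (2.99%, against 8.05%). The median log2 fold change of the list was -0.08 and -0.16, where the median of all genes was 0.00 and 0.01. The count with shCENPA2 rested on both control libraries, being 9 without shNT library 1 and 9 without shNT library 2. Genes lower with both shRNAs were MCM5 and MCM4, subunits of the replicative helicase (log2 fold change -1.02 and -1.40, and -1.08 and -1.12), CDC25A, a phosphatase that activates cyclin-dependent kinases (-1.07 and -1.20), and SLC7A5, an amino acid transporter (-1.34 and -0.97).

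The other 15 genes lower with shCENPA2 had smaller changes apart from E2F2, a cell cycle transcription factor (log2 fold change -1.73, limma adjusted p = 0.00779). They included the nucleolar genes LYAR (-0.64), NOP56 (-0.55), GNL3 (-0.48), FBL (-0.47), TCOF1 (-0.44) and NPM1 (-0.42), the nucleotide synthesis genes PAICS (-0.55) and CTPS1 (-0.35), LDHA of glycolysis (-0.48), TFRC of iron uptake (-0.43), and PTMA, HNRNPA1, PA2G4 and RAN. SHMT2, a mitochondrial enzyme of serine metabolism, was higher with both (log2 fold change 0.45 and 0.57, limma adjusted p = 0.0255 and 0.00375). SLC1A5, a glutamine transporter, was higher with shCENPA2 (0.37, limma adjusted p = 0.0408). Several of the best known targets were not called, among them ODC1 of polyamine synthesis (0.07 and 0.16), nucleolin NCL (-0.15 and -0.27), CAD of pyrimidine synthesis (-0.05 and -0.19) and CDK4 (0.04 and -0.16).

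**Figure D4:**
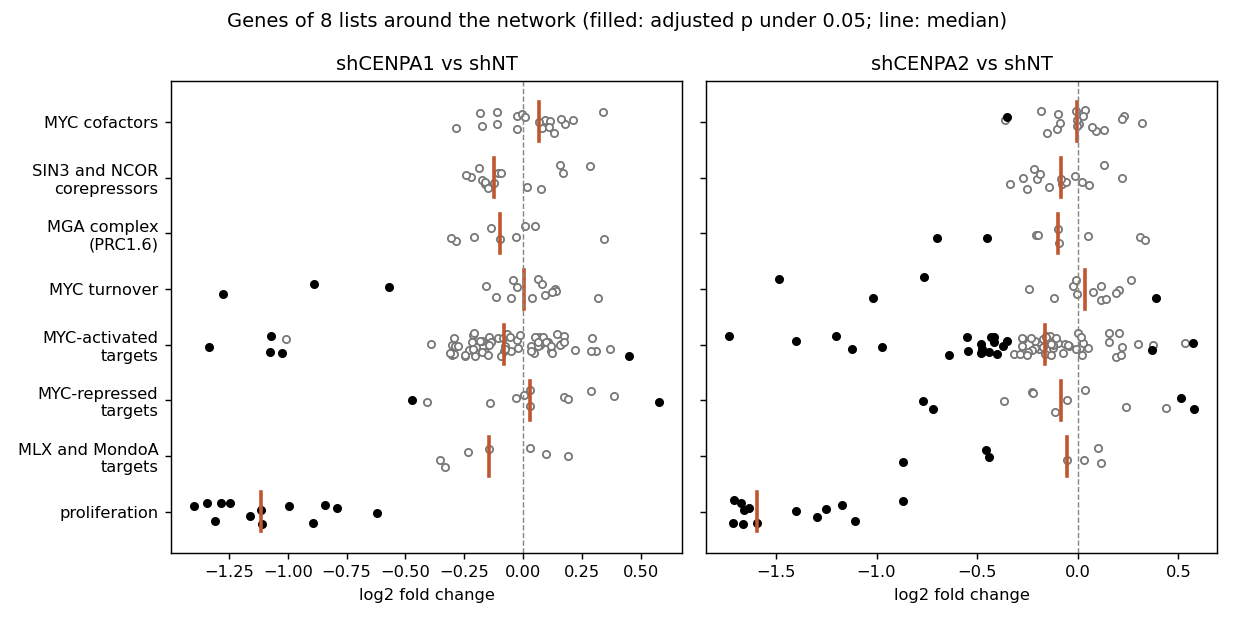
The log2 fold change (x axis) of each gene in 8 lists around the network (y axis) is shown for shCENPA1 and for shCENPA2 against shNT. Filled points had an adjusted p under 0.05, and the vertical lines are list medians. The proliferation genes lie at medians of -1.12 and -1.60, and the MYC-activated targets at -0.08 and -0.16.

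Of 12 tested genes that MYC represses, 1 was lower and 1 higher with shCENPA1 (8.33% each, against 4.45% and 2.69% of all genes), and 2 were lower and 2 higher with shCENPA2 (16.7% each, against 10.5% and 8.05%). These are counts of 1 or 2 genes, and nothing is read from them about the list. GADD45G, a stress-response gene, was higher with both (log2 fold change 0.58 and 0.58, limma adjusted p = 0.0433 and 0.0219). CDKN1A, the p21 inhibitor of cyclin-dependent kinases, was lower with shCENPA1 (-0.47, limma adjusted p = 0.0307) and not called with shCENPA2 (-0.23). With shCENPA2, NDRG1 (-0.77) and the secreted chaperone CLU (-0.72) were lower and NDRG2 (0.51) was higher. Of 7 tested targets of MLX with Mondo proteins, limma called 0 with shCENPA1 (1 at an unadjusted p under 0.05, and 1 with voom). Of all genes 4.45% were lower and 2.69% higher there, and nothing is read from this 0. With shCENPA2, HK2, a hexokinase (log2 fold change -0.87, limma adjusted p = 0.000532), FASN, the fatty acid synthase (-0.45, limma adjusted p = 0.0312), and KLF10 (-0.44, limma adjusted p = 0.0281) were lower, 42.9% of the list against 10.5% of all genes. This is 3 of 7 genes, and nothing is read from it about the list. TXNIP and ARRDC4, the arrestin-like genes most closely tied to MondoA, were not called (0.03 and -0.05, and 0.19 and 0.11). PFKFB3 (0.10 and 0.03) and ACACA (-0.33 and 0.10) were not called either.

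Proliferation genes fell with both shRNAs, as MYC did, while MXD4 rose. All 13 genes of the proliferation list were called lower with both (100%, against 4.45% and 10.5% of all genes tested). Their median log2 fold change was -1.12 and -1.60, where MYC had -0.35 and -1.18. Between the shRNAs 2 of 13 were called lower with shCENPA2 (15.4%, against 1.03% of all genes). The proliferation antigen MKI67 stood at -1.40 and -1.66, the topoisomerase TOP2A at -1.34 and -1.71, the ribonucleotide reductase subunit RRM2 at -1.25 and -1.71 and the cyclin CCNA2 at -1.28 and -1.63. Their part in the values of MYC, MXD3, MXD4 and the MYC-activated targets was not tested.

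The genes whose levels most resembled each changed member over the 6 libraries are given as a description, since group differences and library depth are shared by all points. For MYC these were GLUL (Pearson r 0.997), GPC3 (0.996) and AKR1C3 (0.996), and 275 of 14623 other genes exceeded 0.95. GLUL, the glutamine synthetase, had log2 fold changes of -0.12 and -0.53, and AKR1C3, an enzyme of androgen synthesis, -0.78 and -2.23. For MXD3 the closest were SLC20A1 (0.997), OVOL2 (0.994) and TRIM3 (0.994), and for MXD4 they were PTPRH (0.999), CHST12 (0.998) and SESN2 (0.998), with 195 and 430 genes above 0.95. Among the members themselves, r over 6 libraries was 0.82 between MYC and MXD3, -0.81 between MYC and MXD4 and -0.84 between MXD3 and MXD4.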

How the data were processed

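Per the study's methods, the authors sequenced stranded mRNA libraries from 22Rv1 cells as paired-end reads of 50 nt, used TrimGalore for trimming, STAR for alignment against hg38, HTSeq for gene counts and edgeR for testing (versions and strand setting not given in the sources used here). The authors deposited log2 RPKM for 14828 genes in 12 runs. The lanes of a library agreed near sampling noise (chi-square per gene 1.24 to 1.31, against 26.5 to 80.1 between libraries of one shRNA) and were averaged, giving n = 2 libraries per shRNA. Genes averaging -3 log2 RPKM or more entered a fit by limma 3.58.1 under R 4.3.3 (trended variance, 6 libraries in one fit, no covariate, no added constant). As the unit was log2 RPKM, no count model was the main test. The spacing of the values gave back whole reads for 14828 genes (largest distance from a whole read 2.3e-08, tolerance 0.02), which were used for depth and for limma's voom. The recovery and fit were tested on simulated data.

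The members and lists were chosen with earlier results of these data known, the lists being written from general knowledge and not taken from a database. Named were all members, from each list up to 4 genes called alike with both shRNAs, and the 3 genes most alike to each called member. Other genes named from the lists, including uncalled ones, were chosen after their values were seen. Of 69 MYC-activated targets listed, 67 were tested. Symbols absent from the table were matched through older names. The alternatives were lanes as replicates or single lanes, a replicate block, other filters, constants and scalings, no trend, pairwise fits, voom and each library left out. The values of some marker genes are not reported here.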

Additional observations from a re-analysis of the deposited data

Results flagged for a closer look

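The difference between the shRNAs was tested directly with limma, and of CENPA and the tested genes of the lists, 7 passed an adjusted p of 0.05 there, all lower with shCENPA2. Calls over all 14624 genes tested also leaned that way, with 151 (1.03%) lower and 57 (0.39%) higher. Nothing is read from the shared direction of the 7. The genes named for their likeness to a member were not examined, since that likeness already includes this difference. Among the network members this was MYC (log2 difference -0.84). CENPA itself differed by -0.98. Of the MYC-repressed list, CLU differed by -0.75. The proliferation genes CDK1 and RRM2 differed by -0.50 and -0.47. The luminal marker TMPRSS2, an androgen-responsive protease gene, differed by -0.98, and ALB, a liver marker, by -2.50. The cause of these differences was not tested.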

How the results depend on the processing

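No called member changed direction in any alternative. MYC and MXD3 were called lower with shCENPA2 in 19 of 19 alternatives (log2 fold change -1.25 to -1.12 and -1.81 to -0.84). With shCENPA1, MYC was called in 11 of 19, MXD3 in 10 and MXD4 in 14. Members called with shCENPA1 numbered 5 with each lane as a replicate, 1 with lane 8 only, 0 without the variance trend and 0 to 3 when a library was left out, against 2 as reported. With shCENPA2 they numbered 5 with each lane as a replicate, against 3. Between the shRNAs they numbered 0 to 1 when a library was left out, and 0 only without shCENPA1 library 2. MYC-activated targets called lower numbered 25 with shCENPA1 and 32 with shCENPA2 with each lane as a replicate (4 and 19 as reported). With shCENPA2 they numbered 12 without the trend and 9 to 18 when a library was left out. Same-numbered libraries did not deviate together (r -0.06, -0.10 and -0.15 across pairs of groups), so the numbers were not taken as pairs. With the library number as a replicate block, the members called with shCENPA1 numbered 1 (MXD4, with MYC at a limma adjusted p of 0.0851), and the targets lower with shCENPA2 numbered 16. A crossed replicate block for the comparison between shRNAs, added after seeing the data, left 1 member called. A group left with a single library was assumed to vary like the others. With 2 libraries per shRNA, the number of libraries rather than read depth limited the precision.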
